A study of Mus musculus with 6 samples.

Results

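The cells described here are class-switched B cells whose heavy chain contig carried an IgG1 constant region or an IgG2 constant region (IgG2b or IgG2c). A cell was taken if its barcode carried a single hashtag and at least 500 unique molecular identifiers (UMIs, counted RNA molecules) over all genes. Its isotype was that of the productive heavy chain contig with the most UMIs for that barcode and lane. The rule found 498 IgG1, 99 IgG2b and 94 IgG2c cells, 691 cells in all, among 2756 cells with a productive heavy contig, 19270 cells with a single hashtag and 23516 barcodes. IgG2 here means IgG2b and IgG2c together, 193 cells. Another 26 cells carried IgG3 and were left out.

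Gene expression, receptor contigs and hashtags were measured in draining lymph node cells of 3 wild-type mice (WT1 to WT3) and 3 Pik3cg knockout mice (KO1 to KO3). Every mouse, of either genotype, had been immunized 3 times with NP-Ova in alum, the hapten NP coupled to ovalbumin, and was sampled at day 34. A fraction enriched by removing IgD+ and non-B cells made up 70% of each preparation and untouched cells 30%, so the shares of switched cells describe that mixture. The labels do not state strain, sex, age or the deleted exon.

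Switched isotypes arise when a B cell replaces the constant gene behind its rearranged heavy chain. In mice IL-4 favours IgG1, the usual main isotype after alum immunization, interferon gamma and the transcription factor T-bet (Tbx21) favour IgG2c, and TGF-beta favours IgG2b. A switched cell keeps its V region, so receptors show whether cells of different isotype descend from the same clone. In mice of the C57BL/6 type, many anti-NP antibodies pair an IGHV1-72 heavy chain with a lambda light chain.

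On chromosome 12 of GRCm38 (mm10), on the minus strand, the constant genes lie at 113325240-113330523 (Ighg1), 113302965-113307933 (Ighg2b) and 113285325-113288932 (Ighg2c). The V genes that matter most below are Ighv1-72, at 115757984-115758461, and Ighv8-8, at 115294062-115294504.

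The first set of sequences is the CDR3 region, the junction that identifies a clone, of the 5 largest IGHV8-8 lineages among IgG2 cells of WT1, a receptor family that made up most IgG2 cells of that mouse. A lineage groups cells of 1 mouse with the same V gene, J gene and CDR3 length and at least 85% identical CDR3 bases. Capitals mark the letters CCCGAT, searched on the coding strand only, which 3 of the lineages share at the same place. Each line gives 1 CDR3 of its lineage, at least as common as any other there. In the order printed, it was held by 20 of 23, 1 of 6, 2 of 6, 3 of 15 and 3 of 8 cells. The light chain named is the leading one, used by 12 of the 15 cells of the largest IGKV14-130 lineage.
WT1 IGHV8-8 with IGHJ1 and IGKV10-94, 23 IgG2c cells: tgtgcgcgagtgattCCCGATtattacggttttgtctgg
WT1 IGHV8-8 with IGHJ3 and IGKV10-94, 2 IgG2b and 4 IgG2c cells: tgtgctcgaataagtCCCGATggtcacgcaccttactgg
WT1 IGHV8-8 with IGHJ1 and IGKV10-94, 6 IgG2c cells: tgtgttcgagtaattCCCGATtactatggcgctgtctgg
WT1 IGHV8-8 with IGHJ1 and IGKV14-130, 15 IgG2c cells: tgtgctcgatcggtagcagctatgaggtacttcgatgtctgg
WT1 IGHV8-8 with IGHJ4 and IGKV14-130, 8 IgG2c cells: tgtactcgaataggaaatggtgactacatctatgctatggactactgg

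The second set shows bases 82 to 111 of IGHV1-72, counted from 1 at the first base of framework 1, because this window holds the tryptophan codon whose G-to-T change is known to raise affinity for NP. In the germline line the capital is base 98. In the other lines capitals are bases that differ from the germline. The V sequence from which a line was cut was found in 4 of the 9 cells of the KO3 clone. In the KO1, KO2 and WT1 clones it was found in 1 cell each, so a base shown need not hold for the whole clone.
IGHV1-72 germline: accttcaccagctactGgatgcactgggtg
KO3 IgG2b, largest IGHV1-72 clone (9 cells): accttcaccGTctactTgatAcactgggtg
KO1 IgG1, largest IGHV1-72 clone (2 cells): accttcaccaActactTgatgcactgggtg
KO2 IgG1, largest IGHV1-72 clone (6 cells): accttcaccaCctactggatgcactgggtg
WT1 IgG1, largest IGHV1-72 clone (8 cells): accttcaccagctactggatgcactgggtg

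The third set shows the lineages in which IgG2 and IgG1 cells shared a V gene, J gene and similar CDR3 and that held the most cells. Capitals mark bases that differ from the IgG2 sequence of the same lineage. Each line shows 1 CDR3 of its cells. It was held by 6 of the 12 IgG2c cells in KO1, and by 9 of the 13 IgG2b and 2 of the 11 IgG1 cells in KO3. Those 11 IgG1 cells held 10 distinct CDR3s.
KO1 IGHV1-76 with IGHJ3, 12 IgG2c cells: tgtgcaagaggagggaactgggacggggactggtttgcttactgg
KO1 IGHV1-76 with IGHJ3, 1 IgG1 cell: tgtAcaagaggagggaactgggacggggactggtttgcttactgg
KO3 IGHV1-72 with IGHJ2, 13 IgG2b cells: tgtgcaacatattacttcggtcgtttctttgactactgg
KO3 IGHV1-72 with IGHJ2, 11 IgG1 cells: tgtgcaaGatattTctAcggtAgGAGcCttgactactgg

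Constant-region RNA matched the contig call in nearly all IgG1 and most IgG2 cells. Among cells with RNA of an IgG1 or IgG2 constant gene, the contig's own gene had the most UMIs in 489 of 492 IgG1 cells (99.4%), 93 of 99 IgG2b cells (93.9%) and 70 of 80 IgG2c cells (87.5%). Such RNA was present in 492 of the 498 IgG1, all 99 IgG2b and 80 of the 94 IgG2c cells. IgG1 cells held 25173 Ighg1, 58 Ighg2b and 3 Ighg2c UMIs. IgG2b cells held 73 Ighg1 UMIs, in 26 of the 99 cells. The overlap was largest in KO3, where 19 of 42 IgG2 cells had Ighg1 RNA. In WT1, KO1 and KO2 it was 4 of 79, 1 of 25 and 5 of 38. Ighg2b RNA was in 10 of 103 IgG1 cells of KO3, 1 of 62 in WT1, 2 of 59 in KO1 and 0 of 203 in KO2. IgG2c cells held 247 Ighg2c UMIs, 185 without the 5 highest cells, and IgG2b cells 5233 Ighg2b UMIs, 721 without the 5 highest. The contigs that gave the calls had a median of 3 UMIs in IgG1, 2 in IgG2b and 4 in IgG2c cells. In T-like clusters, which should lack these transcripts, 4 of 4108 cells had an IgG1 contig (0.0974%) and 0 an IgG2 contig, which allows up to 0.0730%, at a median of 2480.5 gene UMIs. In B-lineage clusters 3.37% of 14273 cells had an IgG1 and 1.33% an IgG2 contig, at a median of 2030 gene UMIs. Of the 691 cells, 144 rested on 1 heavy contig UMI and 360 had at least 3. Only 1 barcode sequence among them occurred in both lanes (241 in the whole series).

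The share of IgG2 among IgG cells differed widely between mice and did not separate the genotypes. It was 56.0% in WT1 (79 of 141 cells, exact 95% interval 47.4 to 64.4%), 4.35% in WT2 (1 of 23, 0.11 to 21.95%) and 14.0% in WT3 (8 of 57, 6.26 to 25.8%). It was 29.8% in KO1 (25 of 84, 20.3 to 40.7%), 15.8% in KO2 (38 of 241, 11.4 to 20.99%) and 29.0% in KO3 (42 of 145, 21.7 to 37.1%). The WT mice held both the highest and the lowest share, and the 3 KO mice lay between them. The mean was 24.8 ± 27.5% in WT and 24.8 ± 7.86% in KO (SD, n = 3 each; two-sided exact permutation test, p = 1). For IgG2b alone the means were 10.5 ± 5.49% and 14.6 ± 7.88% (exact permutation p = 0.6), and for IgG2c alone 14.3 ± 23.3% and 10.2 ± 9.74% (exact permutation p = 1). The smallest p that 3 against 3 mice allow is 0.1, and all 3 adjusted p were 1.

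The makeup of IgG2 also varied by mouse. IgG2c was 73.4% of IgG2 cells in WT1 and 72.0% in KO1, but 23.7% in KO2 and 19.05% in KO3. So IgG2 cells were mostly IgG2c in WT1 and KO1 and mostly IgG2b in KO2 and KO3, across genotypes. Only WT1, KO1, KO2 and KO3 had at least 10 cells on each side. The paired comparisons below rest on these 4 mice, 427 IgG1 and 184 IgG2 cells, unless another set or minimum is named.

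**Figure D1:**
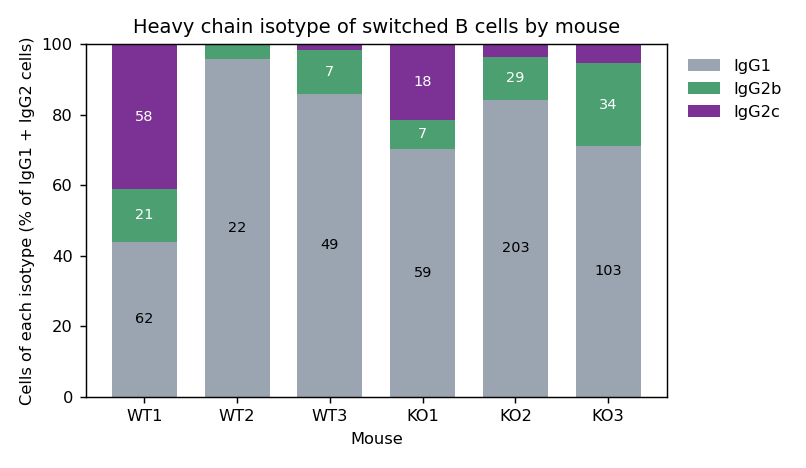
Share of IgG1, IgG2b and IgG2c among the switched cells of each mouse (y axis, percent), with cell numbers in the larger bar segments. WT1 had the highest IgG2 share (56.0%) and WT2 the lowest (4.35%), with the KO mice between 15.8 and 29.8%.

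Most switched cells of both kinds were germinal centre B-like, from 5 clusters that expressed Bcl6, Fas, S1pr2 and other markers of the sites where B cells mutate and are selected. These clusters held 420 IgG1 cells (84.3%), 79 IgG2c cells (84.0%) and 59 IgG2b cells (59.6%). The IgG1 share was 80.7% in WT1, 79.7% in KO1, 87.2% in KO2 and 86.4% in KO3, and the IgG2 share in the same order was 91.1%, 72.0%, 34.2% and 76.2%. Among the compared mice, IgG2 was lower in the 3 KO mice and higher in WT1, with KO2 far below the rest. In the WT mice not compared, IgG2 was lower too. The shares were 81.6% of IgG1 and 37.5% of 8 IgG2 cells in WT3, and 77.3% and 0% of 1 IgG2 cell in WT2. The mean difference of -15.1 ± 26.9 percentage points (SD, n = 4 mice) was within the spread between mice (two-sided exact sign-flip permutation p = 0.5, Benjamini-Hochberg adjusted p = 0.75 over 9 features). KO2 carried much of it, since without that mouse the mean difference was -2.46 points.

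A B cell cluster led by S100a6, Fcrl5 and Plac8 held relatively more IgG2 than IgG1 cells in each compared mouse. S100a6 is used as a marker of memory B cells, and Fcrl5 encodes an Fc receptor-like protein of B cells. The cluster had 435 cells in the series, with Cd79a in 99.3% of them, and 4 of the memory markers but 1 of 10 germinal centre markers detected, and it was left unnamed. It held 4 IgG1 cells (0.803%), 19 IgG2b cells (19.2%) and 6 IgG2c cells (6.38%). The IgG1 share was 1.61% in WT1, 0% in KO1, 0.493% in KO2 and 0% in KO3. The IgG2 share was 2.53%, 16.0%, 34.2% and 9.52% in the same mice. IgG2 was higher in 4 of 4 mice, by 1 cell in WT1. The mean difference was 15.04 ± 13.9 points (exact sign-flip permutation p = 0.125, the smallest that 4 mice allow; adjusted p = 0.75). This feature was chosen after the clusters had been seen, and it falls to 8.81 points without KO2.

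A further cluster led by Pclaf, Stmn1, Slpi and Jchain was left unnamed. Most of its leading genes were cell cycle genes. It had 10 of 10 germinal centre markers detected, at a mean of 26.6% of its cells, and 4 antibody-secreting markers. It held 43 IgG1 cells (8.64%), 7 IgG2b cells and 3 IgG2c cells. Heavy contigs with 30 or more UMIs, a limit set after seeing the values, were found in 21 IgG1, 4 IgG2b and 0 IgG2c cells. Of these, 17 IgG1 cells and all 4 IgG2b cells lay in that cluster. The highest contig count was 928 UMIs in an IgG1 cell, 1689 in an IgG2b cell and 18 in an IgG2c cell. The median per mouse was 2 to 4 UMIs on both sides, with a mean difference of 0.

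**Figure D2:**
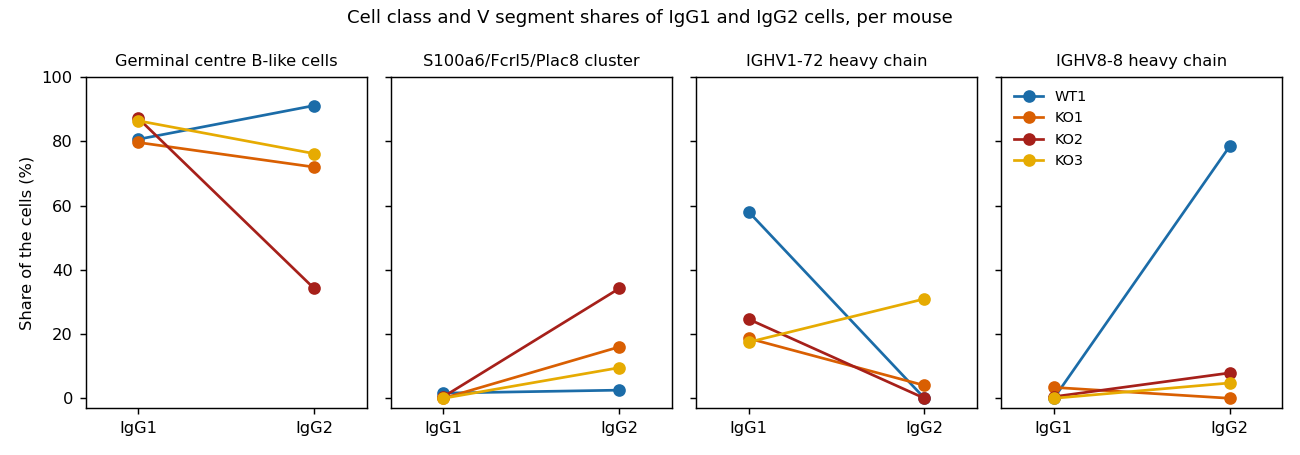
Percent of IgG1 and IgG2 cells in the germinal centre B-like class, in the S100a6, Fcrl5 and Plac8 cluster, with an IGHV1-72 heavy chain and with an IGHV8-8 heavy chain (1 panel each); each line joins the values of 1 mouse. WT1 went from 58.1% IGHV1-72 and 0% IGHV8-8 in IgG1 to 0% and 78.5% in IgG2.

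IGHV1-72, the V gene of the canonical NP response, was common among IgG1 cells and unevenly spread among IgG2 cells. It was carried by 134 IgG1 cells (26.9%), 15 IgG2b cells and 1 IgG2c cell. Its share of IgG1 cells was 58.1% in WT1, 18.6% in KO1, 24.6% in KO2 and 17.5% in KO3, and of IgG2 cells 0%, 4%, 0% and 30.95%. A count of 0 allows up to 3.80% in WT1 and up to 7.89% in KO2. IgG2 was lower in WT1, KO1 and KO2 and higher in KO3 (mean difference -20.97 ± 29.5 points, exact sign-flip permutation p = 0.25, adjusted p = 0.75). The mean was -8.60 points without WT1 and -32.45 without KO3. A single IGHJ1 lineage held 21 of the 36 IgG1 cells of WT1 with IGHV1-72, and all 21 had the lambda segment IGLV1. Among IgM and IgD cells of each mouse the IGHV1-72 share was 0.872 to 3.07%.

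Lambda light chains followed the same mice. Their share was 59.0% of IgG1 and 0% of IgG2 cells in WT1, 19.6% and 4% in KO1, 21.8% and 13.2% in KO2, and 20.8% and 34.15% in KO3. The difference was within the spread between mice (mean -17.5 ± 30.3 points, exact sign-flip permutation p = 0.375, adjusted p = 0.75), and was -3.65 points without WT1 and -27.8 without KO3. Of the IgG1 cells with IGHV1-72 and a light chain, 117 of 132 used lambda.

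The affinity-raising change at base 98 (G98T, germline base first) was found in IGHV1-72 cells of both isotypes. It was present in 57 of 134 IgG1 cells, namely 9 of 36 in WT1, 3 of 10 in WT2, 3 of 9 in WT3, 8 of 11 in KO1, 25 of 50 in KO2 and 9 of 18 in KO3. Among IgG2 cells it was present in 13 of 16, all of them in KO3, where 13 of 13 had it. None of 37 IgM or IgD cells with IGHV1-72 had it, which allows up to 8.11%. Over all V genes, 91.4% of IgM and 98.8% of IgD cells had no mismatch, so any substitution would be rare there. The 13 KO3 cells are IgG2b and belong to the single IGHJ2 lineage printed above, so they count as 1 lineage. With or without the change, the 134 IgG1 cells with IGHV1-72 came from 45 lineages and the 16 IgG2 cells from 3.

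IGHV8-8 dominated IgG2 in 1 mouse. It was carried by 62 of 79 IgG2 cells of WT1 (78.5%) and 0 of its 62 IgG1 cells, which allows up to 4.84%. The IgG2 share was 0% in KO1, 7.895% in KO2 and 4.76% in KO3, against 3.39%, 0.493% and 0% of IgG1 cells. WT1 stood apart, and the mean difference of 21.8 ± 38.1 points (exact sign-flip permutation p = 0.25) was 2.925 points without it. IGHV8-8 was chosen after the V genes had been seen. It was carried by 5.30% of IgM and IgD cells of WT1 and by 3.81 to 5.81% over the 6 mice.

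The 62 IGHV8-8 cells of WT1 were 56 of the 58 IgG2c cells and 6 of the 21 IgG2b cells, and 59 were germinal centre B-like. They formed 7 lineages, each of 2 or more cells, and 1 of these held both IgG2b and IgG2c. Of the 60 with a light chain, 37 used IGKV10-94 and 20 used IGKV14-130. No IgG1 cell of WT1 used either. The letters CCCGAT stood in the CDR3 of 35 of the 37 cells with IGKV10-94 (94.6%), 0 of the 20 with IGKV14-130 and 7 of the 2694 other cells with a heavy contig (0.260%). The letters were picked after these sequences had been seen. The 35 cells all lay in the printed lineages that share the letters, and a further IGKV10-94 lineage, of 2 cells, lacked them. Cells of a lineage share ancestry, so the cell counts are not counts of separate occurrences.

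Substitutions recurred across these lineages. G98C was present in 34 of the 62 cells and in 4 of the 7 lineages, in 34 of 37 cells with IGKV10-94 and 0 of 20 with IGKV14-130, and in 1 of 107 other IGHV8-8 cells. A229G was present in 28 cells of 5 lineages, including 17 of 20 with IGKV14-130 and 8 of 37 with IGKV10-94. A240T was present in 27 cells of 3 lineages, and G177A in 24 cells of 4 lineages, 12 with each light chain. A197G was present in 23 cells of 1 lineage. In other IGHV8-8 cells these last 3 were present in 1, 0 and 2 of 107. Of those 107 cells, 24 were IgM and 73 IgD. In these 2 classes 91.4% and 98.8% of all cells had no V mismatch. Few substitutions of any kind could be found there, so the low counts do not set these 5 apart. Cells of a lineage share ancestry, so the lineage count and not the cell count gives the number of separate occurrences, as far as lineages were correctly split.

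The number of V segment mismatches, a measure of somatic mutation, differed between IgG1 and IgG2 in opposite directions among the mice. The median in IgG1 cells was 7.5 in WT1, 4 in KO1, 6.5 in KO2 and 4 in KO3, and in IgG2 cells 13, 5, 5 and 7. By the mean, IgG2 was higher in WT1 and KO3 and lower in KO1 and KO2 (mean difference 0.991 ± 3.02 bases, exact sign-flip permutation p = 0.625, adjusted p = 0.804). The WT1 IgG2c cells had a median of 13, against 8 in IgG2b cells of that mouse. In WT1, 62 of the 79 IgG2 cells were of the IGHV8-8 lineages. In KO3, 13 of the 42 IgG2 cells were of 1 IGHV1-72 lineage, with a median of 15. Cells of a lineage share mutations, and the part of these lineages in the difference was not tested. Over all mice the median was 6 in IgG1, 5 in IgG2b and 11 in IgG2c, and 0 in IgM and IgD cells, of which 98.8% of the IgD cells had no mismatch.

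Unmutated receptors made up a larger share of IgG2 cells outside the germinal centre B-like class than within it. No mismatch was found in 23 IgG1 (4.63%), 14 IgG2b (14.1%) and 3 IgG2c cells (3.19%). Among IgG2 cells it was 15 of 55 outside the class (27.3%) and 2 of 138 within it (1.45%). Among IgG1 cells it was 10 of 78 outside and 13 of 420 within. These counts pool the mice and were not tested.

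**Figure D3:**
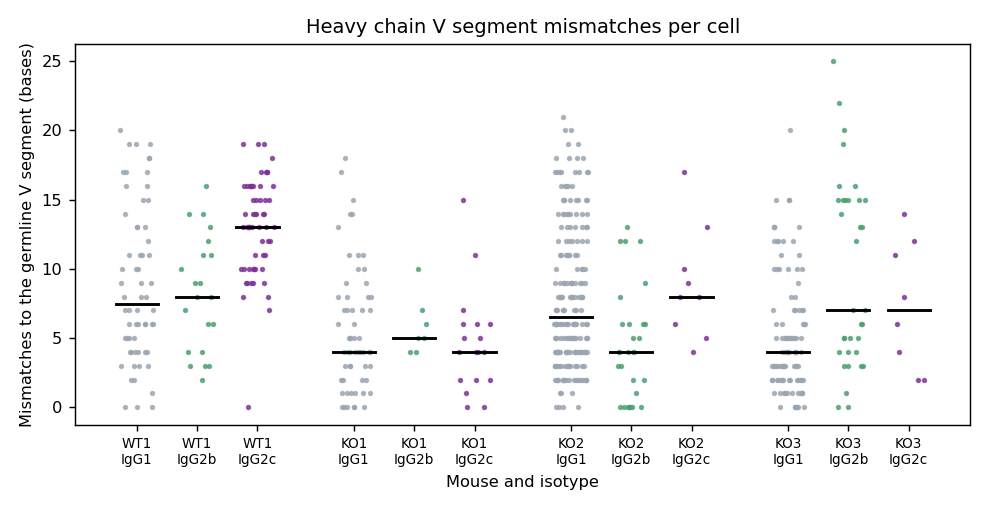
Heavy chain V segment mismatches to the germline (y axis, bases) of each cell of the 4 compared mice, by mouse and isotype, with the median as a black line. IgG2c cells of WT1 had a median of 13 and the other sets shown had medians of 4 to 8.

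Clonal expansion was no more regular. Cells in a clone (identical V, J and CDR3) of at least 2 cells were 40.3% of IgG1 and 48.1% of IgG2 cells in WT1, 15.3% and 28% in KO1, 46.3% and 15.8% in KO2, and 27.2% and 47.6% in KO3. KO2 thus ran against the other 3 mice, and the mean difference was 2.61 ± 22.7 points (exact sign-flip permutation p = 0.875). Because larger samples hold more repeats, the shares were also taken at equal numbers of cells, where they were 40.3% and 44.5% in WT1, 7.57% and 28% in KO1, 20.9% and 15.8% in KO2, and 15.4% and 47.6% in KO3. The mean difference and p above are of the shares at unequal numbers, and those at equal numbers were not tested. The largest clone had 8 IgG1 and 20 IgG2 cells in WT1, 3 and 7 in KO1, 9 and 2 in KO2, and 4 and 9 in KO3.

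IgG1 and IgG2 cells seldom shared a lineage. Of 323 lineages over all 6 mice, 102 had at least 2 cells, and of these 76 held IgG1 only, 21 IgG2 only and 5 both (52 cells). In KO1 the shared IGHV1-76 lineage held 12 IgG2c, 3 IgG2b and 1 IgG1 cell, and the IgG1 CDR3 differed from the leading IgG2c CDR3 at 1 base. In KO3 the IGHV1-72 lineage held 13 IgG2b and 11 IgG1 cells, all with lambda chains. Their leading CDR3s differed at 8 bases, and G98T was in 13 and 9 of them. That grouping joins CDR3s step by step, so it may hold more than 1 clone. Clones with an identical CDR3 in both isotypes numbered 2.

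Some receptors occurred in 2 mice. Of 522 IgG receptors, 4 were found in 2 mice, among them an IGHV8-8 receptor of 3 IgG2c cells of WT1 and 1 IgG2c cell of KO2. Whether the hashtag placed these cells in the right mouse was not tested. With all IGHV8-8 cells left out, the gene test that follows again called 0 genes.

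For gene expression, UMIs were summed per mouse and isotype without immunoglobulin genes. The sums in WT1, KO1, KO2 and KO3 were 428685, 484791, 1610999 and 703723 UMIs for IgG1 and 598663, 192939, 157556 and 259608 for IgG2. The median per cell was 7104 in IgG1 and 3085.5 in IgG2 cells of KO2, and differed less in the others. The mean difference in gene UMIs per cell was -1092.4 ± 2086.2 (exact sign-flip permutation p = 0.5), -117 without KO2 and -1754 without WT1.

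No gene differed between IgG2 and IgG1 cells past an adjusted p of 0.05. Of 5339 genes tested with edgeR's quasi-likelihood test and the mouse as a block, 0 were called (0%), and 259 had an unadjusted p under 0.05 (4.85%), 141 higher (2.64%) and 118 lower (2.21%) in IgG2. DESeq2 also called 0, with 75 genes at an unadjusted p under 0.05. In 695 genes (13%) all 4 mice moved the same way. The 6 genes with the smallest p, given next, are therefore values and not calls. All fold changes are log2 of IgG2 over IgG1 with their standard errors (SE), and levels are CPM, counts scaled to library size.

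Gpr183 encodes EBI2, an oxysterol receptor that guides B cells to the follicle's edge and is low in germinal centres (chromosome 14, 121952551-121965195). Its level in WT1, KO1, KO2 and KO3 was 12.2, 32.0, 14.9 and 11.9 CPM in IgG1 and 24.1, 78.8, 168 and 45.2 CPM in IgG2. IgG2 was higher in every mouse, most in KO2, though the groups overlapped (2.17 with an SE of 0.41, edgeR adjusted p = 0.206). Over 20 settings its adjusted p ran from 6.76e-06 to 0.999, and 5 of them called it, including 1 cell per clone (adjusted p = 0.0157). In the fit of germinal centre B-like cells alone it did not pass the filter on low counts.

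Gimap4, a GTPase of lymphocytes (chromosome 6, 48684549-48692060), was at 7.33, 17.1, 18.1 and 29.7 CPM in IgG1 and 25.8, 56.3, 154 and 53.45 CPM in IgG2. IgG2 was again higher in every mouse with some overlap (1.97, SE 0.38, edgeR adjusted p = 0.206). B3gnt5, a glycosyltransferase that starts lacto-series glycolipids (chromosome 16, 19760208-19772753), was at 0, 8.53, 14.25 and 10.4 CPM in IgG1 and 24.1, 28.1, 83.9 and 28.8 CPM in IgG2. The groups did not overlap (2.29, SE 0.46, edgeR adjusted p = 0.206). Sat1, which acetylates polyamines (chromosome X, 155213132-155216449), was at 103, 113, 141 and 139 CPM in IgG1 and 193, 231, 252 and 185 CPM in IgG2, also without overlap (0.79, SE 0.18, edgeR adjusted p = 0.528). The uncharacterized BE692007 was higher in 4 of 4 mice (1.94, SE 0.46, edgeR adjusted p = 0.594).

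Lmo7, a LIM domain protein (chromosome 14, 101729957-101934710), was the lower gene of this group. It was at 296, 183, 202 and 138 CPM in IgG1 and 136, 67.5, 69.9 and 103 CPM in IgG2. All IgG2 values were below all IgG1 values (-1.08, SE 0.21, edgeR adjusted p = 0.206). When the fit was limited to germinal centre B-like cells, where 5190 genes were tested and 0 called (236 at an unadjusted p under 0.05, 4.55%), Lmo7 was again lower in 4 of 4 mice, by -0.99 (SE 0.20), at an edgeR adjusted p of 0.0539. Jchain, the joining chain of secreted IgM and IgA, was lower there in 4 of 4 mice as well (-0.62, SE 0.13, edgeR adjusted p = 0.0539).

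Leaving out the cluster with Slpi and Jchain among its leading genes called 4 genes, Gpr183 and Gimap4 higher and Lmo7 and Jchain lower in IgG2. This alternative was added after the clusters had been seen.

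**Figure D4:**
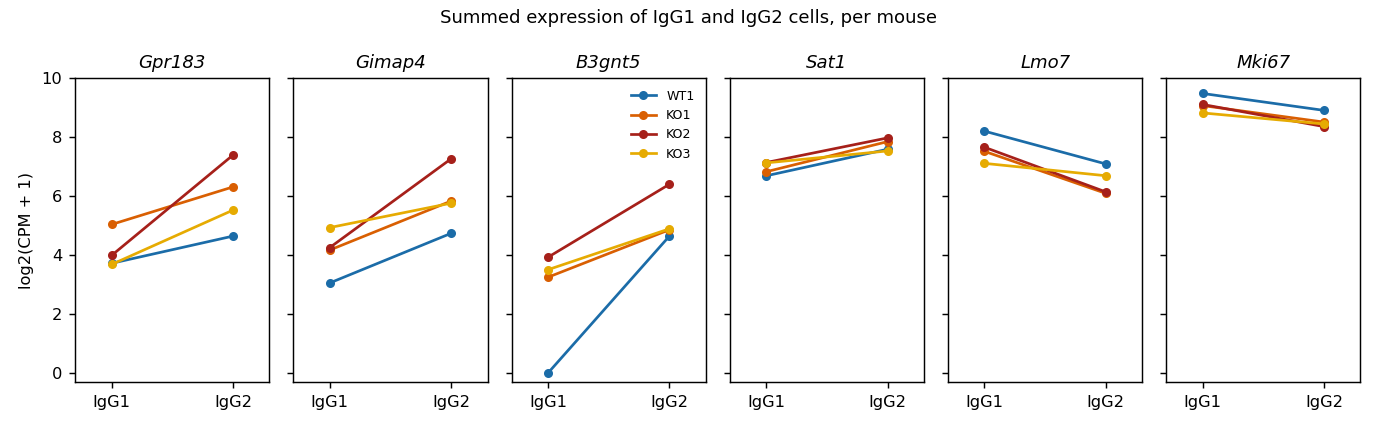
Level of 6 genes in summed IgG1 and IgG2 cells (y axis, log2 of CPM + 1), with a line for each mouse. Gpr183, Gimap4, B3gnt5 and Sat1 were higher and Lmo7 and Mki67 lower in IgG2 in all 4 mice, and none passed the adjusted threshold.

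Genes tied to the isotype choice gave little. Tbx21 was too low to be tested, with 5 UMIs in 4 IgG1 cells and 9 UMIs in 8 IgG2 cells over the 4 mice. All 8 IgG2 cells were in WT1, 3 IgG2b and 5 IgG2c, all germinal centre B-like, and 6 of them carried IGHV8-8, while 0 of 62 IgG1 cells of WT1 had a UMI. Cxcr3, a target of T-bet, had 1 UMI in IgG1 and 10 in IgG2 (2 in WT1, 5 in KO1, 3 in KO2 and 0 in KO3), from a smaller number of IgG2 cells. Ccr6, a chemokine receptor of memory cells, had 13 UMIs in IgG1 and 18 in IgG2.

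Receptors for the switching cytokines did not differ past the threshold. Ifngr1, a chain of the interferon gamma receptor, was at 36.7, 51.2, 49.9 and 51.9 CPM in IgG1 and 63.7, 107, 83.9 and 49.3 CPM in IgG2 (0.64, SE 0.26, edgeR adjusted p = 0.966). It was higher in IgG2 in WT1, KO1 and KO2 and about level in KO3. Il4ra, the IL-4 receptor chain, had a value of -0.08 (SE 0.32, edgeR adjusted p = 0.999). Bcl6, the regulator of germinal centre B cells, was at 134, 149, 163 and 148 CPM in IgG1 and 126, 67.5, 126 and 132 CPM in IgG2, lower in all 4 mice without passing (-0.37, SE 0.21, edgeR adjusted p = 0.987). Pik3cg, the deleted gene, had -0.41 (SE 0.37, edgeR adjusted p = 0.987).

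The lists of genes below were described by their members' direction, since 0 members of the 22 lists were called. Over all 5339 genes the median log2 fold change was 0.01 and 51.3% were above 0. The programme of T-bet and interferon gamma had 5 of 20 members tested, 4 higher and 1 lower in IgG2 (median 0.36). The IL-4, IL-21 and STAT6 list had 6 higher and 4 lower of 10 (median 0.28), the TGF-beta list 7 and 2 of 9 (median 0.17), and the switch machinery 9 and 13 of 22 (median -0.05).

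Cell division genes leaned to IgG1. Of 18 genes of the G2 and M phases, 17 were lower in IgG2, 9 in all 4 mice and 9 with an unadjusted p under 0.05, against 2.21% of all genes that were lower at that p (median -0.55). Mki67, the proliferation marker Ki-67 (chromosome 7, 135689784-135716361), was at 718, 539.5, 554.5 and 454 CPM in IgG1 and 482, 366, 329 and 349.5 CPM in IgG2 (-0.56, SE 0.14, edgeR adjusted p = 0.603). It was lower in every mouse, with a slight overlap between mice. Top2a, the topoisomerase of chromosome separation, had -0.54 (SE 0.16), and the mitotic kinases Plk1 and Cdk1 had -0.86 and -0.66. Aurkb, another mitotic kinase, was the single member above 0, at 0.11. Among genes of the S phase, 6 were higher and 9 lower (median -0.07).

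The germinal centre list leaned the same way, with 13 of 14 lower and 1 higher (median -0.22). Of its members Pou2af1 (-0.45) and Rgs13 (-0.46), a coactivator and a regulator of chemokine receptor signals, had an unadjusted p under 0.05. Of 11 dark zone genes, those of the dividing compartment, 10 were lower (median -0.36), in part the same division genes. Genes of the light zone, where cells are selected, had 7 higher and 5 lower of 12 (median 0.10).

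Lists on the higher side in IgG2 were those of memory B cells (median 0.54, 2 higher and 2 lower of the 4 tested), follicular B cells (0.40, 5 higher and 2 lower) and migration receptors (0.37, 4 higher and 2 lower). Among them Itga4, an integrin chain, was at 31.8, 27.7, 19.4 and 23.7 CPM in IgG1 and 34.4, 50.65, 244.8 and 28.8 CPM in IgG2 of WT1, KO1, KO2 and KO3. Klf2, a factor of resting lymphocytes, was at 29.3, 49.0, 46.0 and 47.5 CPM in IgG1 and 20.65, 39.4, 426.6 and 57.6 CPM in IgG2. In both genes KO2 alone was far higher in IgG2, the compared mouse whose IgG2 cells were least often germinal centre B-like. All 11 genes of MHC class II presentation were slightly above 0 (median 0.10), as were 16 of 20 of B cell receptor signalling (median 0.19).

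Within germinal centre B-like cells, where 50.8% of all tested genes were above 0, these medians mostly moved toward 0. The migration list went to -0.02, the follicular list to -0.05, the MHC class II list to -0.04 and the germinal centre list to -0.07. The 3 memory genes still tested had a median of -0.48. The G2 and M list kept 16 of 18 lower (median -0.35), 6 with an unadjusted p under 0.05, and the dark zone list 10 of 11 (median -0.35).

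Summed markers of the cell classes differed between isotypes in different mice. Germinal centre markers made up 2110 to 2370 CPM in IgG1 and 1371 to 2425 in IgG2, with KO2 lowest. Follicular markers were at 147 to 225 in IgG1 and 167 to 787 in IgG2, and memory markers at 149 to 166 and 157 to 413, both highest in KO2. T cell markers were at 49.0 to 134 in IgG1 and 51.8 to 114 in IgG2, with 12 and 3 Cd3e UMIs. Macrophage or monocyte markers were at 4.13 to 114 and 0 to 317, of which Ly6c2 had 86 and 212 UMIs, while C1qa, C1qb and Adgre1 were at 0. NK markers were at 0 to 19.9 and 0 to 88.9, and dendritic markers at 46.65 to 86.3 and 69.8 to 98.55. Antibody-secreting markers were at 6534 in IgG1 and 2826 in IgG2 of WT1, and at 4584 and 7686 in KO2. KO1 and KO3 were lower in IgG2, as was WT1. The part of these markers in the gene results was not tested.

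**Figure D5:**
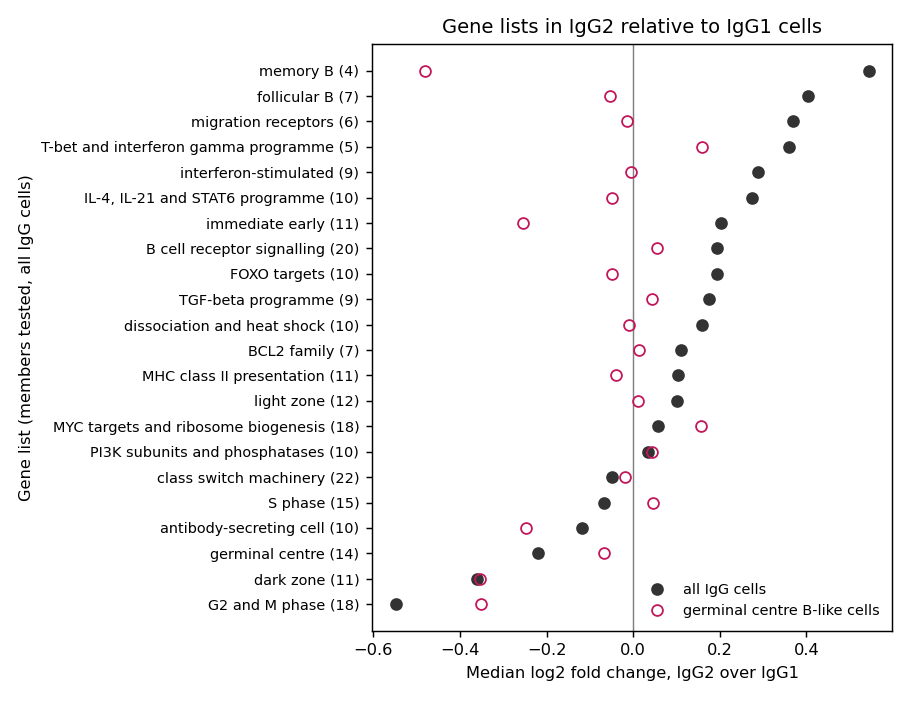
Median log2 fold change of IgG2 over IgG1 for the tested members of 22 gene lists, in all IgG cells (filled) and in germinal centre B-like cells alone (open). The G2 and M list is the lowest in all cells at -0.55, and the memory list runs from 0.54 in all cells to -0.48 in germinal centre B-like cells.

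Within IgG1 cells, KO and WT mice were compared over all 6 animals. Pik3cg, which encodes the catalytic subunit of PI3K gamma (chromosome 12, 32173473-32208659), was at 34.6, 17.4 and 41.5 CPM in the WT mice and 30.4, 29.6 and 34.6 CPM in the KO mice. The genotypes overlapped, and because the deleted part is not given, these levels do not check the labels. Of 5446 genes, 1 was called (0.0184%), 273 had an unadjusted p under 0.05 (5.01%) and 662 did not overlap between genotypes (12.2%).

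The gene called was Slc15a2, a peptide transporter (chromosome 16, 36750177-36784962). It was at 7.41, 78.1 and 65.2 CPM in WT1 to WT3 and 99.9, 309 and 178 CPM in KO1 to KO3. All KO values were above all WT values (KO over WT 2.39 on the log2 scale, SE 0.43, edgeR adjusted p = 0.0494). The call rests on single mice: the adjusted p was 0.824 without WT1 (1.61), 0.134 without WT2 and 0.0616 without KO3. It was called in 7 of 16 settings, 9 genes were called without KO2, and DESeq2 called 0 genes (86 at an unadjusted p under 0.05).

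Within IgG2 cells only WT1 represented the wild type. The fit assumed that WT mice vary like the KO mice, so its p-values compare WT1 with the KO mice and do not measure the spread between WT mice. Of 4376 genes, 2 were called (0.0457%) and 127 had an unadjusted p under 0.05 (2.9%), while in 39.3% WT1 lay outside the range of the KO mice. Plac8, a leading gene of the S100a6 cluster (chromosome 5, 100553725-100572245), was at 8.845 CPM in WT1 and 244, 173 and 67.5 CPM in KO1 to KO3 (4.09, SE 0.72, edgeR adjusted p = 0.0432). That cluster held 2.53% of IgG2 cells in WT1 and 9.52 to 34.2% in the KO mice. Emp2, a membrane protein of the tetraspan type (chromosome 16, 10281749-10313968), was at 106 CPM in WT1 and 5.68, 13.9 and 12.65 CPM in the KO mice (-3.25, SE 0.59, edgeR adjusted p = 0.0432). Both were called on leaving out any KO mouse, when 18 to 26 genes were called. With 1 WT mouse whose IgG2 cells are mostly of the IGHV8-8 lineages, genotype, mouse and receptor cannot be told apart here.

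Whether the IgG2 to IgG1 difference depended on genotype was tested with mice of at least 5 cells on each side. This minimum, set after the cell numbers had been seen, adds WT3. The 8 IgG2 cells of WT3 held 27623 UMIs without immunoglobulin genes. The WT side thus rests on WT1 and these few cells, which limits what the test can show. Of 5520 genes 0 were called, with 97 at an unadjusted p under 0.05 (1.76%) and 29 with DESeq2. The 3 genes with the smallest p were Gm49953 (4.52, SE 0.89, edgeR adjusted p = 0.0937), Nrgn, a calmodulin-binding protein (-1.865), and Cmss1 (1.42).

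IgG2c was compared with IgG2b in the 4 mice with at least 5 cells of each, a minimum set after the cell numbers had been seen. Some sums rest on few cells, namely 7 IgG2b cells in KO1, 9 IgG2c cells in KO2 and 8 IgG2c cells in KO3. Of 1985 genes 12 were called (0.605%), 6 higher and 6 lower in IgG2c (0.302% each). Hist1h1b, a linker histone made in dividing cells, was at 148.5, 416.5, 207 and 318 CPM in IgG2b and 509.6, 743, 1575 and 1135 CPM in IgG2c of WT1, KO1, KO2 and KO3. All IgG2c values were above all IgG2b values (1.875, SE 0.24, edgeR adjusted p = 5.08e-05). Hist1h2ap, a core histone of a family of near-identical genes among which reads can be split, was higher as well (1.255, SE 0.22, edgeR adjusted p = 0.00353).

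Hsp90b1, a chaperone of the endoplasmic reticulum, was at 993, 249.9, 2342 and 203 CPM in IgG2b and 181, 161.5, 109.9 and 158 CPM in IgG2c. IgG2b of WT1 and KO2 was far above the rest (-2.22, SE 0.32, edgeR adjusted p = 0.000199). Xbp1, a regulator of antibody secretion, was lower in IgG2c too (-2.13, SE 0.38, edgeR adjusted p = 0.00353), as was Itm2b (-1.60, SE 0.30, edgeR adjusted p = 0.00413). Without the Slpi and Jchain cluster, which held 7 IgG2b and 3 IgG2c cells, 5 genes were called. All 5 were among the 12 and higher in IgG2c, with Hist1h1b and Hist1h4d among them, and Hsp90b1 had -0.46 and Itm2b -0.42, both with an adjusted p of 1. Without the mouse as a replicate block 0 genes were called, and DESeq2 called 3. Without IGHV8-8 cells WT1 no longer had enough cells. That fit held KO1, KO2 and KO3 only (100 cells, 1205 genes tested) and called Hist1h1b alone.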

How the data were processed

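Gene values are raw UMI counts per gene and barcode, deposited by the authors; per the file headers Cell Ranger 7.0.1 made them, and the submitters' processing notes name mm10. Receptor contigs as deposited give gene calls as text and UMI counts, and the deposited hashtag table gives the mouse of each barcode, by a rule not given in the sources used here. The 6 hashtag rows were left out of the gene matrix. The lanes held 36704676 and 39581727 UMIs, are repeats of 1 pool and were summed, so the mouse is the replicate.

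Cells with at least 200 genes, at most 10% mitochondrial UMIs and a Scrublet score under 0.341 (the automatic threshold of lane 2, used for both lanes; 184 of 19208 cells were marked) were clustered with scanpy 1.11.5 (2000 variable genes, 30 components, 15 neighbours, Leiden resolution 2, 29 clusters). These filters were not applied to the IgG cells, of which 15 have no cluster. Germinal centre B-like clusters had at least 8 of 10 markers detected and a mean detection of at least 50%, a rule set after seeing the clusters. Mismatches were counted against GENCODE vM21 V segments, leaving out 1 cell above 40.

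Counts per mouse and isotype, without 393 immunoglobulin genes, were fitted with edgeR 4.0.16 (glmQLFit with TMM and filterByExpr in R 4.3.3; two-sided tests, with p adjusted by Benjamini-Hochberg and called under 0.05), for mice with at least 10 cells on each side. Both sides of a mouse come from 1 animal, so the mouse was a block. SE is the size of a log2 fold change divided by the root of its F value. Shares were compared by exact permutation over mice. Alternatives were DESeq2 1.42.0, other filters, single lanes and leaving out each mouse. On simulated counts, the IgG2 against IgG1 fit called 45 of 100 genes changed by a log2 fold of 1, 99 of 100 changed by 2, and 4 of 5139 unchanged genes. The simulation gave a gene the same level and the same fold in every mouse, with a spread taken from the trend over genes. It therefore does not show how often a difference that varies between mice would be called. Named genes were those past the threshold by size, the 6 smallest p where fewer than 6 passed (3 to 6 in the other tests), and Pik3cg, Tbx21, Cxcr3, Ccr6, Il4ra, Ifngr1, Bcl6 and Mki67 (another gene of that rule is not reported here); others were picked from the lists after seeing values. Cells, lists and comparisons were chosen with earlier results of these data known. Intervals cover counting error only.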

Additional observations from a re-analysis of the deposited data

Results flagged for a closer look

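The share of IGHV8-8 heavy chains in IgG2 minus IgG1 cells was 78.48 percentage points in WT1 and stood apart from the other 3 compared mice, by more than the usual criterion for a single outlying value of 4. Of 20 sets of 4 mice examined this way, 1 stood out, and chance gives about 1 in 20. The cells lie in 7 lineages of that mouse, and the cause was not tested.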

How the results depend on the processing

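For IgG2 against IgG1, the count of genes called was 0 and became 38 without a filter on low counts, 1 with at least 5 cells, 8 in lane 1 alone, 8 with immunoglobulin genes kept (all 8 of them immunoglobulin genes), 2 with IgG2c alone, 1 with IgG3 added, 4 without the Slpi and Jchain cluster, 1 with 1 cell per clone, 7 of only 253 genes tested in KO1 to KO3 with clusters other than germinal centre B-like and at least 5 cells (54 cells), and 0 to 1 on leaving out each mouse (Jchain without KO2, Plac8 without WT1). The settings with at least 5 cells and with IgG3 added also held WT3. IgG2c alone as IgG2 left KO1 and WT1, and IgG2b alone left KO2, KO3 and WT1. Without the mouse as a replicate block the count for IgG2 against IgG1 stayed 0 (249 genes at an unadjusted p under 0.05). Leaving out the block ended calls only for IgG2c against IgG2b. KO against WT in IgG1 gave 0 genes with DESeq2, without TMM, with at least 3 contig UMIs, in lane 1 and with 1 cell per clone, 30 without a filter, and 0 to 9 on leaving out each mouse. KO against WT in IgG2 gave 1 with DESeq2, 21 without a filter, 0 with at least 3 contig UMIs, 7 in germinal centre B-like cells, 13 in lane 1, 5 in lane 2, 24 without that cluster and 18 to 26 on leaving out each KO mouse. The isotype by genotype term gave 2 without a filter and 0 to 5 on leaving out each KO mouse (2 without KO2, 5 without KO3). IgG2c against IgG2b gave 0 with no replicate block, 3 with DESeq2, 5 without that cluster and 11 to 15 on leaving out each mouse. It gave 4 with at least 3 contig UMIs, from KO2, KO3 and WT1 only, and 1 without IGHV8-8 cells, from KO1 to KO3 only.

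Small differences changed sign. Il4ra was 0.25 with IgG2b alone, 0.10 with IgG2c alone and -0.34 to 0.17 on leaving out each mouse. Bcl6 was 0.0927 in lane 1. The V mismatch difference was -0.405 with at least 5 cells, -0.0307 in lane 1 and -0.0387 to 2.13 on leaving out each mouse, and that of expanded clones -3.33 to 13.65 points. KO minus WT in IgG2 share was -0.134 with at least 3 contig UMIs, -0.472 with the quality filter, -1.67 in germinal centre B-like cells, -2.85 in lane 2, -0.0531 with 1 cell per clone and -10.2 to 15.64 on leaving out each mouse.

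The causes were not tested. The term for genotype and the IgG2c comparison were not run at 10 cells, which left 1 WT mouse and 1 mouse. IgG2 sums of 157556 to 598663 UMIs limit what low genes such as Tbx21 can show.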
